A study of Mus musculus with 12 samples.

Results

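The 153 genes described here are the expressed protein-coding neighbors of Fosb on mouse chromosome 7. They were chosen by position, with a start from 9888070 to 29895394 on mm9, which is 10 Mb to either side of Fosb (19888070 to 19895394, minus strand), and by a mean of at least 10 reads over the 12 libraries. The mean read count is the only measured value in this rule, and it takes no account of genotype, but the region was picked with earlier results of these data known. Of 476 protein-coding genes in the window, 313 had a mean under 10 reads, and 228 of these had no read in any library. Another 10 genes passed but were left out by name, among them Fosb itself, Calm3, Hif3a, Grik5 and genes of the ribosome and proteasome. The members with the lowest means were Psg16 (10.2 reads), Gm4613 (11.8) and Dll3 (11.9), and the genes just under the limit were Map4k1 (9.83), Plekhg2 (9.67) and Rinl (9.67). Of the 37310 genes in the files, the members took 0.912% to 1.21% of the reads of a library.

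The libraries come from ventral hippocampus (vHPC) of C57BL/6 mice in which every group, controls included, carried Rosa26eGFP/L10a, a Cre-dependent gene for GFP fused to the ribosomal protein L10, and received retrograde HSV-Cre in the nucleus accumbens (NAc) 3 weeks earlier. The WT pools are labelled wildtype and the KO pools FosBfl/fl, so that in KO mice Cre turned on the ribosome tag and also reached the floxed FosB gene. Each genotype had 3 pools of 3 mice, numbered 1 to 3 in WT and 2 to 4 in KO, and each pool gave a TRAP library, mRNA pulled down on GFP-tagged ribosomes, and an input library of the same tissue punches before the pull-down. Since Cre came from virus placed in NAc, the input also holds cells that it did not reach, and the mice of a pool cannot be told apart. P-values therefore measure the spread between pools, and in such bulk samples fewer cells of a type and less RNA per cell cannot be told apart.

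Genes that lie close together on a chromosome are inherited together, and the stretch around Fosb is dense in short, broadly expressed genes. It holds the nucleotide excision repair genes Ercc1 and Ercc2, the apolipoprotein gene Apoe, clusters of KRAB zinc finger genes, which encode DNA-binding repressors that arose by tandem duplication, and genes of neurons such as Nova2, a splicing factor. FosB is a transcription factor that binds DNA as a dimer with Jun proteins at AP-1 sites, and its truncated form builds up in neurons with repeated stimulation.

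The libraries held 3416030 to 5614089 reads on genes, so that 3 reads, under which a gene cannot be told from absent, were worth 0.534 to 0.878 CPM (read counts scaled to library size), a floor that covers counting error only. Fosb itself measured 45.2, 32.6 and 40.2 CPM in TRAP of WT pools, against 29.1, 18.8 and 21.3 CPM of KO pools. In input these were 30.1, 22.2 and 24.3 CPM against 17.0, 16.0 and 14.9 CPM. KO libraries were thus lower in both without overlap (log2 fold change −0.76 in TRAP and −0.68 in input), but a large share of Fosb reads remained. WT input 1 was the shallowest library, with 3416030 reads against 4271780 to 4636374 in the other inputs, and had 15678 genes detected against 17255 to 18090, a count that depends on depth. The summed CPM of 6 pyramidal neuron markers (Camk2a, Slc17a7 and others) was 8639 to 9502 in WT TRAP, 7734 to 8953 in KO TRAP, 5844 to 6475 in WT input and 6029 to 6811 in KO input. Of 5 astrocyte markers it was 34.4 to 55.0, 33.5 to 44.1, 369 to 403 and 371 to 464 in the same order, and of 5 microglia markers 3.11 to 8.36, 5.14 to 6.10, 44.1 to 80.6 and 56.2 to 91.9. Of 5 oligodendrocyte markers it was 176 to 189, 149 to 191, 638 to 960 and 594 to 963, and of 5 GABA neuron markers 224 to 323, 137 to 561, 631 to 643 and 642 to 748. No marker was at 0 in every library of a group. At an unadjusted p under 0.05 between genotypes, 1 of 5 astrocyte markers differed in TRAP and 1 of 5 oligodendrocyte markers in input. Among all genes 6.05% differed in TRAP and 2.89% in input. Too few reads left no microglia marker and only 4 oligodendrocyte markers tested in TRAP. The part of these markers in the results below was not tested.

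More of the neighbors of Fosb were low in KO than of all genes, in TRAP and in input. With the TRAP and input libraries of all 6 pools in a single limma fit, in which the pool is a block, Opa3 and Ube2m fell at an adjusted p under 0.05, and no member rose, against 0.0303% of all genes. They are 2 of 153 members (1.31%), against 0.0984% of the 13214 genes tested, and the 9 genes called lower were 0.0681% of all genes. At an unadjusted p under 0.05, 31 of 153 members (20.3%) were lower in KO, against 2.63% of all genes, and 2 members, Trappc6a and Tmem145, were higher, against 2.77%. Elsewhere on chromosome 7, 19 of 785 genes were lower and 20 higher. The median log2 fold change was −0.07 over the members, of which 102 (66.7%) were below 0, whereas 49.0% of all genes were. Without KO pool 4 this median was −0.044, and without WT pool 3 it was −0.052.

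Opa3, whose product sits in mitochondria and whose loss causes optic atrophy, ends 46.2 kb from Fosb (19813683 to 19841892, plus strand). In TRAP its level was 71.7, 56.3 and 67.2 CPM in WT pools and 38.0, 43.6 and 31.8 CPM in KO pools. In input it was 56.6, 61.9 and 72.7 CPM in WT and 41.7, 34.6 and 38.1 CPM in KO. Every KO library was below every WT library of its kind. In the combined fit Opa3 fell to 58.7% of WT (log2 fold change −0.77 ± 0.12 (SE), limma adjusted p = 0.00424). The change was −0.77 ± 0.16 in TRAP alone and −0.75 ± 0.16 in input alone, where edgeR gave an adjusted p of 0.0815 and 0.301. Without WT pool 3 the adjusted p of the combined fit was 0.0733 and without KO pool 4 it was 0.106, with a log2 fold change of −0.71 and −0.70.

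Ube2m, the E2 enzyme that conjugates the ubiquitin-like protein NEDD8 to cullins, lies 6.26 Mb from Fosb (13620587 to 13623622, minus strand). TRAP gave 131, 154 and 153 CPM in WT, against 101, 107 and 101 CPM in KO. Input gave 145, 147 and 154 CPM in WT, against 103, 119 and 103 CPM in KO. Again the genotypes did not overlap in either kind of library. Ube2m fell to 72.2% of WT (log2 fold change −0.47 ± 0.08, limma adjusted p = 0.0121). This call was lost without WT pool 3 (adjusted p = 0.172), KO pool 2 (0.154) or KO pool 4 (0.273), and with edgeR on the summed counts of each pool (0.0656), whereas its log2 fold change ranged from −0.53 to −0.44 over the fits that leave out 1 of the 6 pools. The gene beside it, Chmp2a, an ESCRT-III subunit, measured in TRAP 155 ± 12.1 CPM (SD, n = 3) with WT and 143 ± 10.6 CPM with KO mice, with a log2 fold change of −0.10 ± 0.11 in TRAP and −0.08 ± 0.15 in input.

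The promoter sequences of the 4 members with the smallest p in the combined fit are shown from RefSeq on GRCm38.p6 (chr7:19228139-19228438 plus strand for Opa3, chr7:13038226-13038525 minus strand for the upstream start of Ube2m, chr7:19381767-19382066 plus strand for Ercc2 and chr7:19573294-19573593 minus strand for Gemin7), with the AP-1 letters TGANTCA searched on either strand and found in none of the 4, which says only that these letters are not in these windows. A promoter that holds them is shown too, from Actn4 (chr7:28962283-28962582 minus strand), 1 of only 3 members with those letters, which are in capitals. Each runs from 250 bases before the start to 50 after it.
Opa3: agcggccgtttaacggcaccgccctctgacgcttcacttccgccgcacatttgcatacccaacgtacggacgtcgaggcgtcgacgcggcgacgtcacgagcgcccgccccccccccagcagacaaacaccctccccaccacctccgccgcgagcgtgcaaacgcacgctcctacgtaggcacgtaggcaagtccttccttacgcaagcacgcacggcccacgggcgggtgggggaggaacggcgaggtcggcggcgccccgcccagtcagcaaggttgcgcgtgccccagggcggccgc
Ube2m: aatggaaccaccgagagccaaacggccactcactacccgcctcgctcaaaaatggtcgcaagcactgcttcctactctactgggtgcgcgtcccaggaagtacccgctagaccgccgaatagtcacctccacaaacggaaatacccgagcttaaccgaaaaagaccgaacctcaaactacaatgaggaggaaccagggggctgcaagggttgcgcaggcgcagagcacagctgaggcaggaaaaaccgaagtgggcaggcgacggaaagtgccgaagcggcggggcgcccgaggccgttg
Ercc2: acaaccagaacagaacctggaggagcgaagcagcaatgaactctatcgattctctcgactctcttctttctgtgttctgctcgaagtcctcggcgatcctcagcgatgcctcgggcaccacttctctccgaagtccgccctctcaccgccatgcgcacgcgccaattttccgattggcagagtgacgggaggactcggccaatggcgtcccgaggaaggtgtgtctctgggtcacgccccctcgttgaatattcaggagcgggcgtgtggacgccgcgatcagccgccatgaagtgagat
Gemin7: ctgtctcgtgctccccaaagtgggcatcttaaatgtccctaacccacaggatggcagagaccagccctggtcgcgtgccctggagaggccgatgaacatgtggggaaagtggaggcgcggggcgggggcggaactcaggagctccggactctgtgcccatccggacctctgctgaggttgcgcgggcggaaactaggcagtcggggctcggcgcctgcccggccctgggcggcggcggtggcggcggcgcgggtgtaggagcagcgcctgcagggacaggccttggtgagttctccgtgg
Actn4: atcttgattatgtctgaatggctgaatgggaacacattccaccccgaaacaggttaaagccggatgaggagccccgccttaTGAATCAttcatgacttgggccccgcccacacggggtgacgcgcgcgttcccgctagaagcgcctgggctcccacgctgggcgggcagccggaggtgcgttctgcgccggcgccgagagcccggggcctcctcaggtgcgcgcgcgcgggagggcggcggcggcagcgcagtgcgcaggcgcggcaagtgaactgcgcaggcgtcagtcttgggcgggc

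Of the members, 121 matched 157 RefSeq promoters. TGANTCA, which reads the same on both strands apart from its middle letter, was found in 3 of them (1.91%), against 2565 of all 32851 promoters (7.81%). Actn4, an actin crosslinker, had a log2 fold change of −0.11 ± 0.13 in TRAP and 0.01 ± 0.13 in input. Map3k10, a kinase of the JNK pathway, had −0.10 ± 0.13 and −0.13 ± 0.12, and Zfp329, a zinc finger gene, 0.14 ± 0.23 and 0.16 ± 0.22. None of these 3 genes was called in either kind of library. The CRE letters TGACGTCA, at which CREB binds, were in 5 member promoters (3.18%; Chmp2a, Kptn, Napa, Snrpa and Zscan18), against 588 of all (1.79%), none of which also holds TGANTCA. The member promoters were richer in G and C, with a median of 58.7% against 52.7% and 18 against 7 CpG dinucleotides.

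In TRAP, 23 of the 150 members that passed the filter on low counts (15.3%) were lower in KO at an unadjusted p under 0.05, against 3.37% of all 11727 genes tested, and 1 (Tmem145) was higher, against 2.68%. On the rest of chromosome 7, 20 of 698 genes were lower and 17 higher. By edgeR with adjustment over all genes no member passed, against 0.0682% of all genes, whereas 4 did without the filter on expression (Ap2s1, Ccdc61, Opa3 and Ube2m) and 2 by DESeq2 (Opa3 and Ccdc61). The groups did not overlap for 23 members with KO lower, against 6.87% of all genes, and for 4 with KO higher, against 5.22%. The median log2 fold change was −0.10, and 93 of 150 members (62.0%) were below 0, against 50.5% of all genes. Without KO pool 4, 15 members were lower. A fit that blocks on pool number had 12 lower members, 5 of them within 0.5 Mb, and a median of −0.049. The share of all genes called in these fits is not given here. A smaller excess among members and fewer calls throughout thus cannot be told apart. Psg16, Lipe and Axl had too few reads in TRAP to be tested.

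In input, where all 153 members were tested, 27 (17.6%) were lower, against 1.48% of all 12816 genes, and 1, Apoe, was higher, against 1.41%. On the rest of chromosome 7, 10 of 768 genes were lower and 11 higher. No member passed the adjustment in edgeR, against 0.0312% of all genes, whereas 3 did without the filter on expression (Ercc2, Opa3 and Zfp109), 1 with the pool number as a block (Opa3) and 1 by DESeq2 (Ercc2). KO lay below WT without overlap for 28 members, against 4.03% of all genes, and above it for 3, against 4.36%. The median was −0.09, with 102 members (66.7%) below 0, against 50.0% of all genes. Without WT pool 3, 14 members were lower, and without WT pool 1, whose input was the shallowest, 23. For these fits too, the share of all genes called is not given here. The TRAP and input library of a pool come from the same mice, so the 2 comparisons are not independent.

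**Figure D1:**
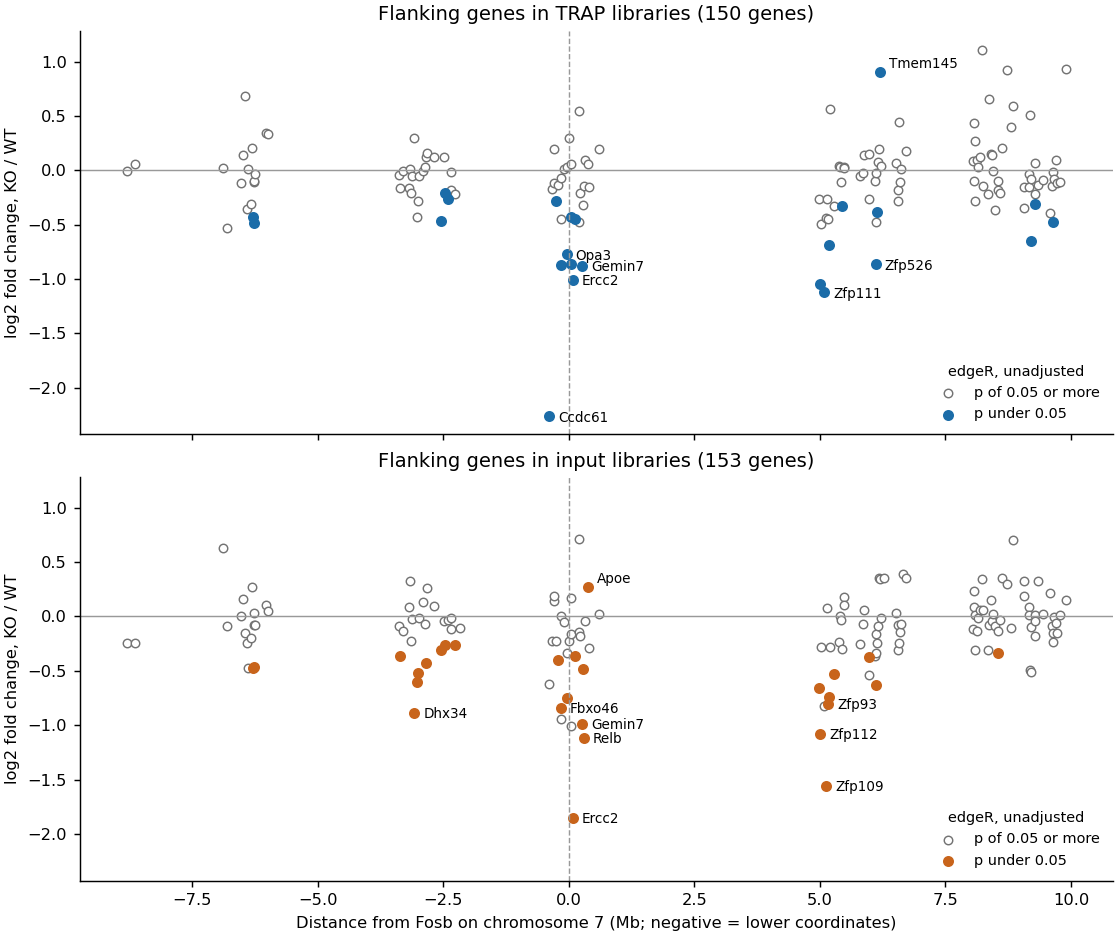
Log2 fold change of KO over WT (vertical axis) of the members against their distance from Fosb in Mb (horizontal axis), with 150 members in the TRAP panel and 153 in the input panel; filled points have an unadjusted p under 0.05. Filled points lie almost all below 0. Among the 27 genes within 0.5 Mb, 9 are filled in TRAP, all below 0, and 9 in input, of which 8 lie below 0 and Apoe above.

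The share of lower genes was read by distance, against 3.37% of all genes in TRAP, 1.48% in input and 2.63% in the combined fit. Within 0.5 Mb of Fosb, 9 of 27 members (33.3%) were lower in TRAP and 8 (29.6%) in input, and the combined fit had 12 lower (44.4%) and 1 higher, Trappc6a. The median log2 fold change there was −0.17 in TRAP, −0.23 in input and −0.26 in the combined fit. Pvr, a cell adhesion receptor of the nectin family, was the only member between 0.5 and 1 Mb, with a log2 fold change of 0.20 in TRAP and 0.02 in input, and no member lies between 1 and 2 Mb. From 2 to 5 Mb, 3 of 24 members were lower in TRAP and 9 of 25 in input, with medians of −0.05 and −0.11. From 5 to 10 Mb, 11 of 98 were lower in TRAP and 10 of 100 in input, with medians of −0.06 and −0.08. Spearman's rho between distance and log2 fold change was 0.206 in TRAP (n = 150), 0.310 in input and 0.301 in the combined fit (n = 153 each), given as a description, since all points come from the same pools and neighbors can share base composition.

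By position, the members form 6 blocks, whose counts of lower genes stand beside 3.37% of all genes in TRAP and 1.48% in input. The block around Fosb, from 0.39 Mb on one side to 0.59 Mb on the other, held 28 genes, of which 9 were lower in TRAP and 8 in input. The block from 2.17 to 3.38 Mb on the side of lower coordinates held 24, with 3 and 8 lower, and the block from 5.99 to 6.88 Mb on that side, with Ube2m, held 16, with 2 and 2. The farthest on that side held 2 genes, Zik1 and Gm6900, and neither was lower. On the other side, the block from 4.97 to 6.72 Mb held 39, with 6 and 8 lower, and the block from 8.05 to 9.89 Mb held 44, with 3 and 1. In this last block these are 6.82% in TRAP and 2.27% in input. The members lower in TRAP had a median distance of 2.55 Mb and a median of 130.2 reads, and the other members 6.20 Mb and 110.2 reads. In input these distances were 3.03 and 6.27 Mb.

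The genes nearest to Fosb did not all differ. Rtn2, a reticulon that shapes the endoplasmic reticulum, ends 6.56 kb from Fosb and is the nearest of all. TRAP gave 32.6, 33.5 and 34.1 CPM in WT, against 37.1, 39.2 and 45.1 CPM in KO, and input gave 44.2, 48.4 and 58.4 CPM, against 30.2, 53.7 and 45.5 CPM. KO thus lay above WT in TRAP and overlapped with it in input, with a log2 fold change of 0.29 ± 0.17 (edgeR adjusted p = 0.861) and −0.23 ± 0.20. The difference between TRAP and input was 0.53 ± 0.26, at an unadjusted p of 0.0548. Vasp, which promotes actin filament growth 30.9 kb away, had −0.33 ± 0.32 in input, and 0.03 ± 0.38 in TRAP, which turned to −0.28 with the pool number as a block. For Eml2, a microtubule-binding protein, the values were 0.01 ± 0.14 and −0.05 ± 0.13 at a WT TRAP level of 96.8 ± 17.9 CPM. Snrpd2, of the spliceosomal Sm core, had −0.07 ± 0.14 and 0.00 ± 0.16, but 76.5% of its exon stretches occur elsewhere in the genome.

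On the other side of Fosb, Ercc1, the partner of the Xpf endonuclease in excision repair, starts 34.7 kb away. It had 9.25, 19.9 and 15.2 CPM in WT TRAP and 7.48, 9.30 and 7.03 CPM in KO TRAP, which overlap by 1 library. Its log2 fold change was −0.87 ± 0.34 in TRAP (unadjusted p = 0.0185) and 0.17 ± 0.36 in input. Cd3eap, a subunit of RNA polymerase I whose 3′ end overlaps that of Ercc1 over 4.72% of its exon bases, had 112, 104 and 107 CPM in WT TRAP and 81.5, 84.0 and 71.5 CPM in KO TRAP. These groups do not overlap, and the log2 fold change was −0.43 ± 0.12 (unadjusted p = 0.00209), against −0.16 ± 0.19 in input, where KO pool 3 stood at 67.3 CPM, above every WT input. Ppp1r13l, an inhibitor of p53, had few reads (7 to 53 in a library), and gave 0.06 ± 0.49 in TRAP and −1.01 ± 0.51 in input.

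Ercc2, the helicase of TFIIH that opens DNA in excision repair and transcription, had the smallest p of any member in input. Input gave 15.3, 9.82 and 16.6 CPM in WT, against 4.71, 4.22 and 2.62 CPM in KO. TRAP gave 9.07, 15.6 and 10.9 CPM, against 4.16, 5.63 and 7.52 CPM. All 6 KO libraries were below all 6 WT libraries. The log2 fold change was −1.85 ± 0.36 in input (unadjusted p = 6.49e-05, edgeR adjusted p = 0.139), −1.01 ± 0.38 in TRAP and −1.40 ± 0.30 in the combined fit, where the limma adjusted p was 0.09. Klc3, Mir343 and Gm17574 overlap 42.7% of its exon bases, in part on the other strand, so its reads are uncertain.

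Gemin7, of the SMN complex that assembles spliceosomal snRNPs, had 24.2, 19.2 and 15.2 CPM in WT TRAP and 13.3, 11.5 and 7.03 CPM in KO TRAP, and 24.3, 21.7 and 18.8 CPM in WT input and 11.5, 12.2 and 8.97 CPM in KO input. It lies 255 kb from Fosb and did not overlap between genotypes in either kind of library. Its log2 fold change was −0.88 ± 0.30 in TRAP, −0.99 ± 0.25 in input and −0.96 ± 0.20 combined (limma adjusted p = 0.09). Mark4, a kinase that phosphorylates tau and other microtubule-associated proteins, is well covered, with 367 to 958 reads in a library. It had 170.4, 167 and 137 CPM in WT TRAP and 105, 122 and 117 CPM in KO TRAP, and 111, 126 and 122 CPM in WT input and 86.5, 87.4 and 105 CPM in KO input. Every KO library was below the WT libraries of its kind, by −0.45 ± 0.12 in TRAP and −0.37 ± 0.13 in input (combined −0.41 ± 0.09, limma adjusted p = 0.118).

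Fbxo46, an F-box protein of the SCF ubiquitin ligases 164 kb from Fosb, was singled out after its values were seen. It had 16.2, 14.8 and 13.9 CPM in WT TRAP and 8.04, 8.32 and 8.002 CPM in KO TRAP, and 14.4, 16.2 and 12.7 CPM in WT input and 7.78, 6.21 and 10.3 CPM in KO input. KO was lower without overlap in both, with −0.87 ± 0.31 and −0.84 ± 0.30 (combined limma adjusted p = 0.232). Dmwd, a WD-repeat protein expressed in brain, had 153, 146 and 148 CPM in WT input and 122, 102 and 116 CPM in KO input (−0.40 ± 0.12), whereas TRAP overlapped (−0.13 ± 0.10). Relb, an NF-kappaB subunit, had 16.8, 11.2 and 7.88 CPM in WT input and 5.42, 4.88 and 6.12 CPM in KO input (−1.11 ± 0.35), and again overlapped in TRAP (−0.15 ± 0.33). The difference between TRAP and input was 0.27 ± 0.15 for Dmwd and 0.97 ± 0.49 for Relb, and neither passed at an unadjusted p under 0.05.

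**Figure D2:**
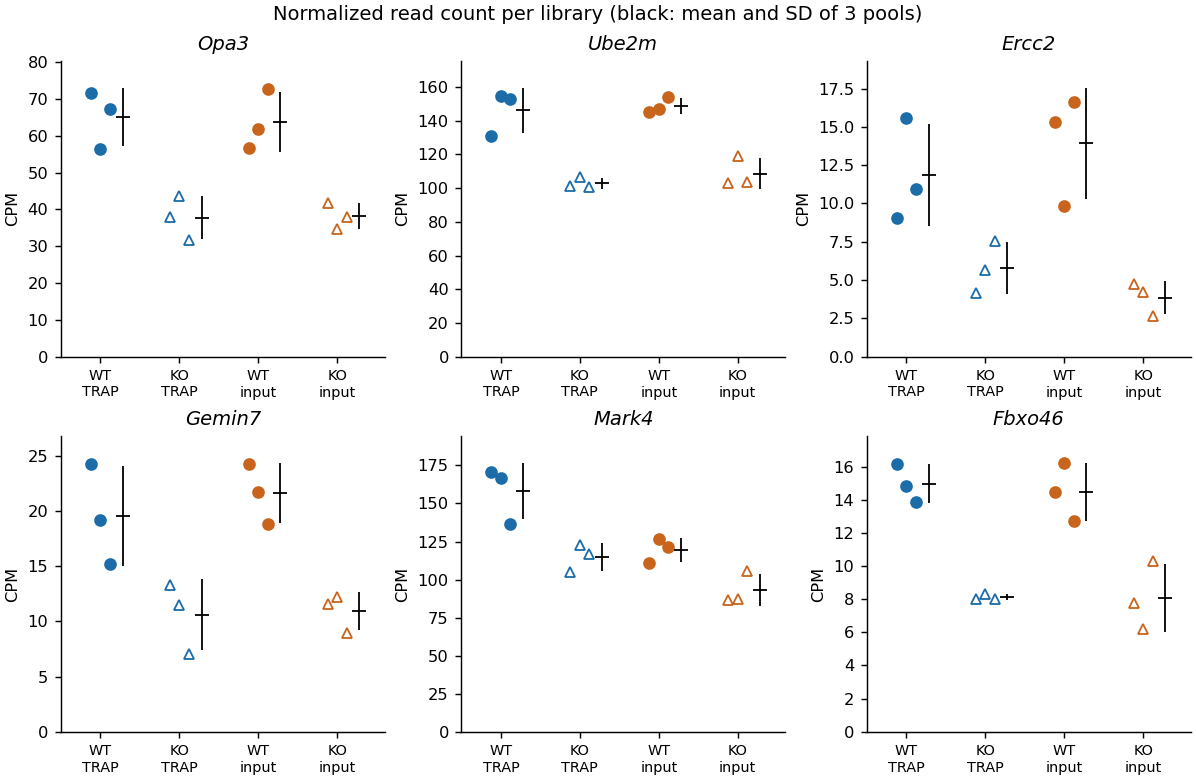
Levels in CPM (vertical axis) of Opa3, Ube2m, Ercc2, Gemin7, Mark4 and Fbxo46 in each library, by genotype and kind of library, with 1 point per library and the mean ± SD of 3 pools. In each panel the KO points lie below the WT points of the same kind, for Opa3 31.8 to 43.6 CPM against 56.3 to 71.7 CPM in TRAP.

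**Figure D3:**
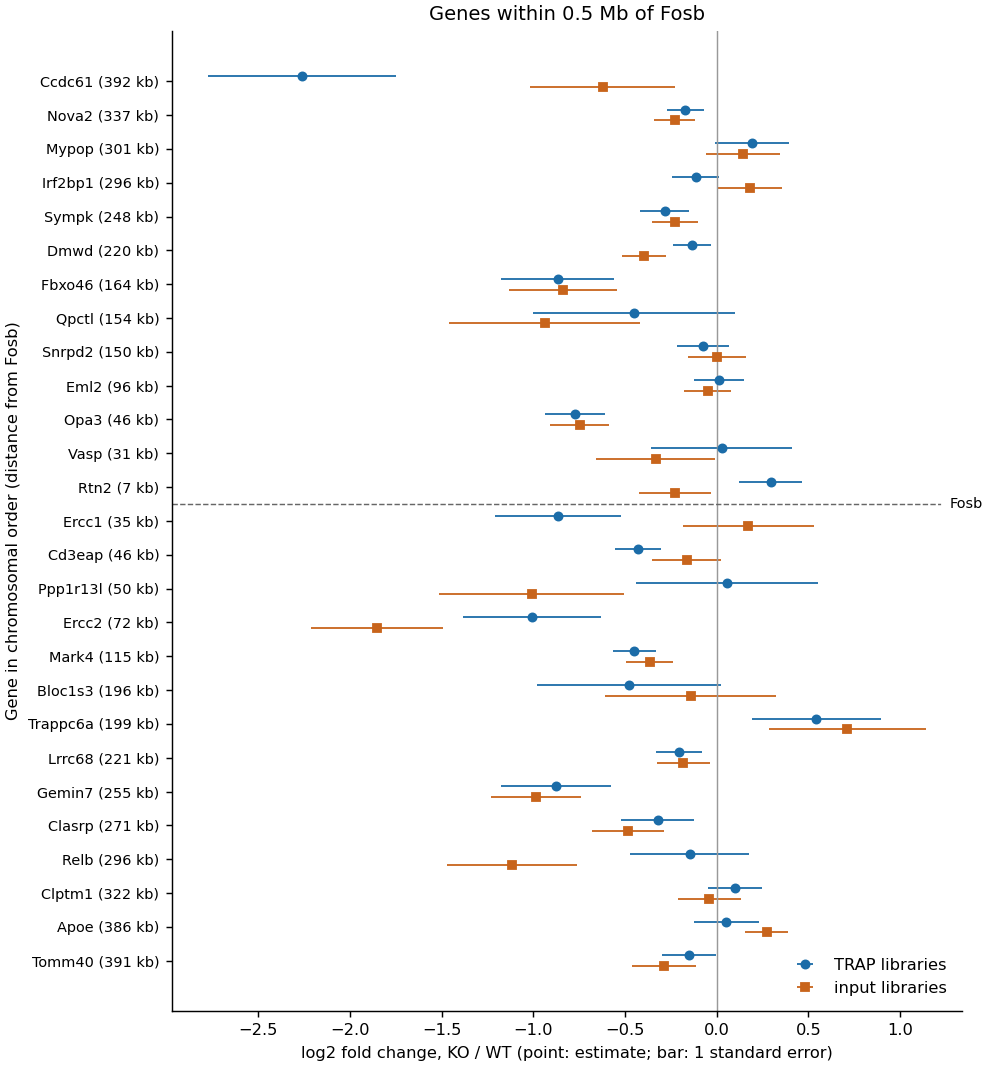
Log2 fold change of KO over WT ± 1 SE (horizontal axis) in TRAP and input for the 27 members within 0.5 Mb of Fosb, in chromosomal order with their distance in kb (vertical axis), the dashed line marking Fosb. Low genes (Opa3, Ercc2, Mark4, Gemin7) alternate with genes near 0 (Eml2, Snrpd2, Clptm1), and Trappc6a lies above 0.

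The 2 members higher in the combined fit were expressed at low levels. Trappc6a, of the TRAPP vesicle tethering complex, had 5.34, 11.0 and 9.86 CPM in WT TRAP and 13.3, 14.2 and 9.94 CPM in KO TRAP, and 2.31, 4.80 and 11.2 CPM in WT input and 11.8, 9.99 and 8.97 CPM in KO input. The groups overlapped in both, and the combined log2 fold change was 0.77 ± 0.30 (unadjusted p = 0.0166, limma adjusted p = 0.804). Without WT pool 1 that value was 0.34, and over all 6 fits that leave out a pool it ranged up to 1.14. Tmem145, a transmembrane protein, had 7.83, 5.99 and 5.86 CPM in WT TRAP and 15.5, 8.57 and 12.9 CPM in KO TRAP, without overlap (0.91 ± 0.36, unadjusted p = 0.0192). In input Tmem145 had 0.34 ± 0.40, with overlap, and 0.015 to 0.63 when each pool was left out. The other members with the smallest p on the side of higher values in TRAP were Shkbp1, a cytoplasmic adaptor (1.11 ± 0.58), Sertad1, a regulator of cell cycle transcription (0.65 ± 0.36), and Zfp110, a zinc finger gene (0.69 ± 0.38), at an unadjusted p of 0.0677, 0.0808 and 0.0827. In input they were Apoe (0.27 ± 0.12, unadjusted p = 0.035), Zfp60, a zinc finger gene (0.36 ± 0.17, unadjusted p = 0.0559), Zfp551, another (0.63 ± 0.36, unadjusted p = 0.096), Trappc6a (0.71 ± 0.43, unadjusted p = 0.113) and Pafah1b3, a platelet-activating factor acetylhydrolase subunit (0.35 ± 0.25, unadjusted p = 0.169). The value of Apoe was 0.17 without WT pool 2 and 0.15 without KO pool 2. When each pool was left out, Trappc6a ranged from 0.35 to 1.49 in input and Sertad1 from 0.42 to 1.18 in TRAP.

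Away from Fosb lies a row of 9 zinc finger genes, 4.97 to 5.19 Mb away (Zfp180, Zfp112, Zfp235, Zfp111, Zfp109, Zfp108, Zfp93, Zfp61 and Zfp94), picked out after their values were seen, so that their counts are a description. In TRAP 8 of 9 were below 0, against 50.5% of all genes, and 3 were lower at an unadjusted p under 0.05, against 3.37%, with a median log2 fold change of −0.45. In input 8 were below 0, against 50.0%, and 5 were lower, against 1.48%, with a median of −0.74. Zfp111 had 21.3, 21.1 and 16.3 CPM in WT TRAP and 6.10, 11.0 and 9.46 CPM in KO TRAP, without overlap (−1.12 ± 0.30, unadjusted p = 0.000958). In input WT pool 1 of Zfp111 was at 6.36 CPM, below 2 of the KO libraries, and the log2 fold change was −0.82 ± 0.42. That value ranged from −1.13 to −0.45 when each pool was left out. Zfp112 had 14.1, 9.58 and 9.06 CPM in WT TRAP against 5.26, 5.14 and 5.33 CPM in KO TRAP, and 9.54, 9.59 and 9.85 CPM in WT input against 4.71, 2.44 and 6.56 CPM in KO input. Both were without overlap (−1.05 ± 0.38 and −1.08 ± 0.39). Zfp61 gave −0.69 ± 0.28 and −0.74 ± 0.26, from 18.5 ± 2.19 CPM in WT TRAP to 11.4 ± 1.47 CPM in KO TRAP and from 17.1 ± 2.20 to 10.2 ± 1.67 CPM in input.

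The members of this row differ among themselves. Zfp109 had 8.67, 18.3 and 13.6 CPM in WT input and 6.36, 4.22 and 3.28 CPM in KO input, without overlap (−1.56 ± 0.37, unadjusted p = 0.000485). In TRAP it had 10.5, 14.1 and 11.99 CPM in WT and 4.99, 11.0 and 10.4 CPM in KO, with overlap (−0.44 ± 0.35). Its TRAP value ranged from −0.62 to −0.17 when each pool was left out. Zfp180 gave −0.26 ± 0.20 in TRAP and −0.65 ± 0.19 in input, and Zfp93 gave −0.45 ± 0.41 and −0.80 ± 0.37. Zfp94 was at 0.57 in TRAP and −0.28 in input, and Zfp108 at −0.26 and 0.08. These genes are copies of each other, and 51.5% of the exon stretches of Zfp93 and 30.6% of those of Zfp108 occur elsewhere in the genome, whereas for the other 7 the share was at most 8.33%.

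**Figure D4:**
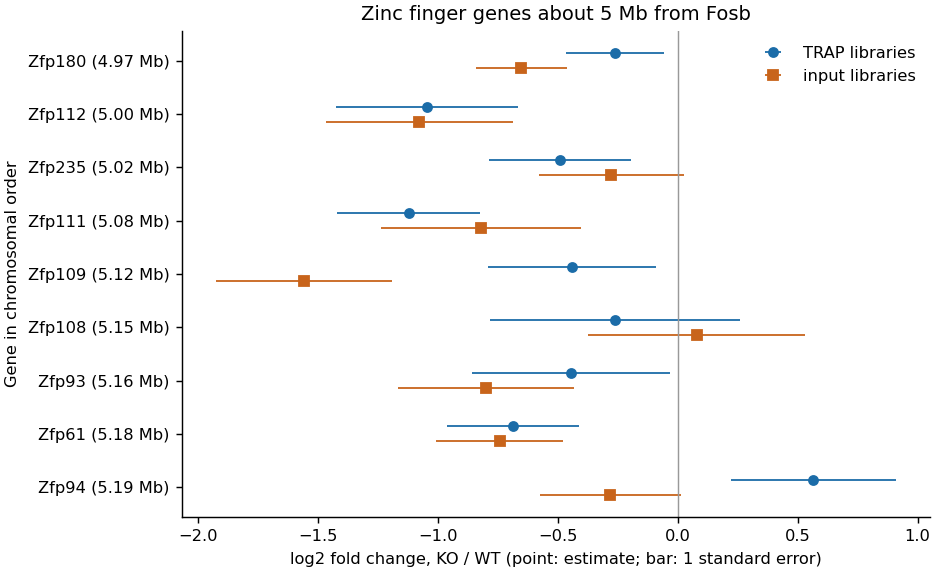
The 9 zinc finger genes 4.97 to 5.19 Mb from Fosb, with the log2 fold change of KO over WT ± 1 SE (horizontal axis) in TRAP and input, in chromosomal order (vertical axis). Zfp112 and Zfp61 lie below 0 in both, Zfp109 is at −0.44 in TRAP and −1.56 in input, and Zfp94 lies above 0 in TRAP.

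The members were also grouped by function, with lists chosen with results of these data known. Their counts at an unadjusted p under 0.05 stand beside 3.37% lower and 2.68% higher among all genes in TRAP and 1.48% and 1.41% in input. The medians of all genes were −0.0020 and −2.5e-05 (log2). Among all members tested 15.3% were lower in TRAP and 17.6% in input. Of 27 zinc finger genes, 4 were lower in TRAP (14.8%) and 7 in input (25.9%), none higher, with medians of −0.03 and −0.19. The row described above, picked after its values were seen, holds 3 of these 4 and 5 of these 7. Outside the row above, Zfp526, 6.11 Mb away, had 23.3, 29.2 and 25.6 CPM in WT TRAP and 10.3, 17.1 and 14.8 CPM in KO TRAP, without overlap (−0.87 ± 0.25), and −0.63 ± 0.27 in input. Of 24 genes of DNA repair, transcription and RNA, 8 were lower in TRAP (33.3%) and 2 in input (8.33%), none higher, with medians of −0.11 and −0.09. Sympk, the scaffold of the polyadenylation machinery, was 1 of the 8, with 92.3 ± 11.1 CPM in WT TRAP and 75.2 ± 5.76 CPM in KO TRAP (−0.28 ± 0.13). Cd3eap, Ercc1, Ercc2 and Gemin7, described above, were also among them. These genes lie within 0.5 Mb of Fosb, where 9 of 27 members (33.3%) were lower in TRAP whatever their function. Function and position were not tested apart.

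Of 30 neuronal and synaptic genes, 3 were lower in TRAP (10.0%, against 3.37% of all genes) and 1 higher (against 2.68%), and 3 were lower in input (against 1.48%), with medians of −0.02 and −0.03. Ap2s1, the small subunit of the clathrin adaptor AP-2, had 219, 286 and 337 CPM in WT TRAP and 206, 203 and 192 CPM in KO TRAP, without overlap (−0.47 ± 0.13, unadjusted p = 0.00149), and −0.31 ± 0.13 in input. Without WT pool 3 its TRAP value was −0.31, and without KO pool 4 its input value was −0.20. Strn4, a striatin that joins phosphatase and kinase complexes, had 348, 414 and 369 CPM in WT TRAP and 321, 309 and 335 CPM in KO TRAP (−0.21 ± 0.09), and −0.26 ± 0.11 in input. Both lie at about 2.5 Mb, near Calm3, a calmodulin gene left out by name, which had −0.47 ± 0.07 in TRAP (edgeR adjusted p = 0.00284) and −0.42 ± 0.09 in input. Nova2, a neuronal splicing factor whose exons share 29.4% of their bases with Gm17370 on the other strand, had −0.17 ± 0.10 and −0.23 ± 0.11.

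Of 12 kinase and phosphatase genes, 2 were lower in TRAP (16.7%, against 3.37% of all genes) and 2 in input (against 1.48%), with medians of −0.16 and −0.13. Mark4, described above, is in this list. Ppp5c, a serine/threonine phosphatase that works with chaperones, had 147, 149 and 162 CPM in WT input and 129.6, 119.9 and 134 CPM in KO input, without overlap (−0.26 ± 0.11). In TRAP Ppp5c had −0.22 ± 0.11 with overlap, and −0.30 to −0.12 when each pool was left out. The lowest TRAP value, −0.47, was the same in this list and in that of lipoprotein, glial and immune genes. Lists can share a gene. Of 14 genes of metabolism and mitochondria, 2 of 13 tested were lower in TRAP (15.4%) and 2 of 14 in input (14.3%), with medians of −0.01 and −0.26. They were Opa3 and, in TRAP, Timm50, a receptor of the mitochondrial inner membrane translocase, which had 43.1, 38.3 and 39.4 CPM in WT TRAP and 25.8, 25.7 and 24.7 CPM in KO TRAP. Those groups do not overlap (−0.65 ± 0.18, unadjusted p = 0.00137), and Timm50 had −0.51 ± 0.26 in input. In input the other gene was Dhx34, an RNA helicase of nonsense-mediated decay that is not metabolic, although the list holds it, with −0.89 in input and −0.55 without WT pool 3. Of 9 lipoprotein, glial and immune genes, 1 of 8 tested was lower in TRAP (12.5%), and in input Relb was lower (11.1%) and Apoe higher, with medians of −0.01 and −0.01.

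The genotype effect was compared between TRAP and input in an edgeR fit of all 12 libraries. At an unadjusted p under 0.05, 3 of 153 members (1.96%) differed, against 2.71% of all genes, and none at an adjusted p under 0.05, against 0.00757%. The 3 were Ccdc61, Dhx34 and Zfp109. Ccdc61, a centriole protein, had 8.72, 6.70 and 21.6 CPM in WT TRAP and 1.11, 3.43 and 2.91 CPM in KO TRAP, without overlap (−2.26 ± 0.51, unadjusted p = 0.000234, edgeR adjusted p = 0.125). Its input libraries overlapped, with 8.96, 8.22 and 6.57 CPM in WT and 7.30, 3.33 and 4.81 CPM in KO (−0.62 ± 0.40). The high value of WT pool 3 rests on 81 reads, and the lowest of KO on 4 reads.

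Most members were as high in TRAP as in input or higher, with a log2 ratio below 0 for 53 of 153 (34.6%), against 51.1% of all genes. TRAP was higher than input for 44 of 153 members (28.8%) at an edgeR adjusted p under 0.05, against 19.6% of all genes, and lower for 18 (11.8%), against 22.5%. Without WT pool 3, 11 were lower. Per exon length, members of high abundance in WT TRAP were Pnmal2, of the PNMA family (389 RPKM), Sepw1, a selenoprotein (328 RPKM), Ap2s1 (210.5 RPKM) and Chmp2a (167 RPKM). Pnmal2, Ap2s1 and Chmp2a were higher in TRAP than in input, by 0.73 ± 0.07, 0.74 ± 0.09 and 0.46 ± 0.09 (log2), whereas Sepw1 was lower, by −0.38 ± 0.09. The most enriched members were Timm50 (1.00 ± 0.15), Snrpa, a spliceosomal protein with 40.0% of its stretches shared (0.96 ± 0.11), and the zinc finger gene Zfp575 (0.92 ± 0.14).

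The most depleted in TRAP were Apoe, Axl and Npas1. Apoe, made mainly by astrocytes in brain, had 52.3, 59.4 and 43.2 CPM in WT TRAP and 47.9, 68.3 and 42.9 CPM in KO TRAP, and 505, 403 and 493 CPM in WT input and 656, 537 and 505 CPM in KO input. TRAP and input were far apart in every pool (−3.30 ± 0.11), and the lowest KO input and the highest WT input were both 505 CPM. Axl, a receptor tyrosine kinase of glia and vessels, stood at 9.14 to 10.4 CPM in WT input and 0.712 to 2.63 CPM in WT TRAP (−3.02 ± 0.33). Npas1, a transcription factor of GABA neurons, stood at 7.80 to 14.0 CPM and 0.356 to 3.59 CPM (−2.71 ± 0.37), the lowest from 2 reads, at which it cannot be told from absent. The genotype effect on Apoe was 0.05 ± 0.18 in TRAP and 0.27 ± 0.12 in input, where the summed astrocyte markers were 369 to 403 CPM in WT and 371 to 464 CPM in KO.

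**Figure D5:**
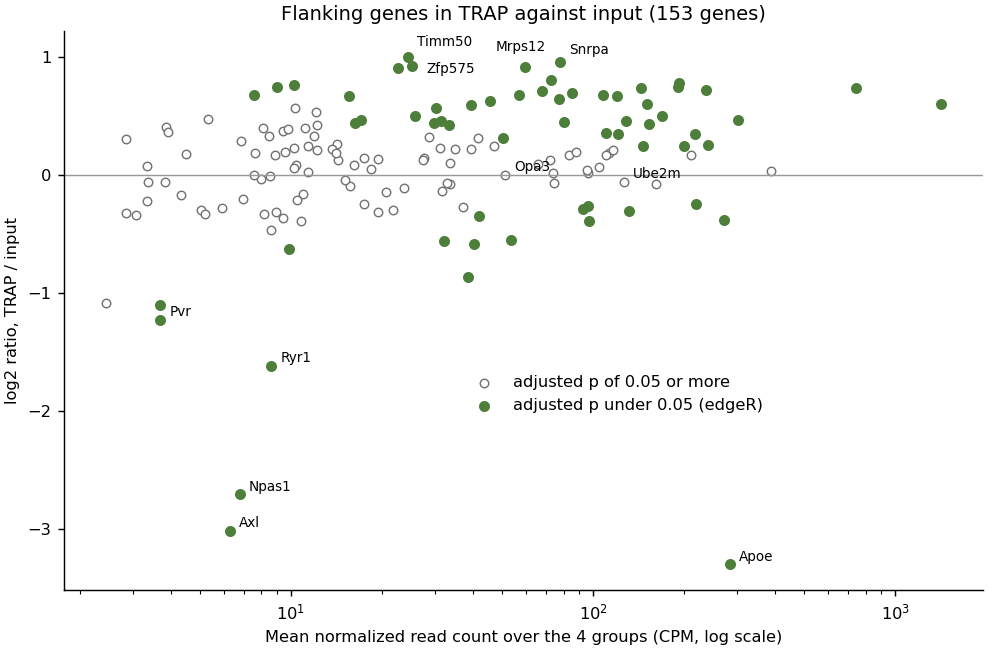
Log2 ratio of TRAP over input (vertical axis) of the 153 members against their mean level in CPM (horizontal log axis). Apoe, Axl and Npas1 lie lowest, at −3.30, −3.02 and −2.71, and Timm50 highest, at 1.00.

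Members were checked for exon sequence that occurs elsewhere or that another gene overlaps, since its reads could belong to another gene. The shares are of exon sequence and not of reads. When members with over 20% of either were left out, 22 of 130 were lower in TRAP and 24 of 132 in input. That alternative was chosen after seeing the data, and the part of such reads was not tested further. Of all members, 44 had an exon stretch of 75 bases that occurs elsewhere in the genome with up to 2 mismatches, 16 of them over more than 20% of the stretches, and 28 had an exon that another gene overlaps, 6 of them over more than 20% of the bases. Among the 23 members lower in TRAP none had over 20% of stretches shared and 1 over 20% overlapped, and among the 27 lower in input these were 2 and 1, Ercc2 being the overlapped gene in both. Smaller shares, such as the overlap of Cd3eap and Ercc1, are under this limit. The lower members had a median log2 fold change of −0.49 in TRAP (−2.26 to −0.21) and −0.53 in input (−1.85 to −0.26).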

How the data were processed

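For each of the 12 TRAP and input libraries the authors deposited raw counts of reads per gene, made by TopHat alignment to mm9 and HTSeq on Gencode vM1. Versions and the strand setting are not given in the sources used here. Reads outside genes (20.6% to 27.1%) and ambiguous reads (2.11% to 2.56%) stayed out of library sizes. Libraries whose labels do not name input were read as TRAP. The labels give 3 mice per pool, whereas the protocol allows a larger pool.

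KO was tested against WT in TRAP and in input with the edgeR 4.0.16 quasi-likelihood test in R 4.3.3 (default expression filter, TMM, robust). Benjamini-Hochberg adjustment ran over all genes tested. Both kinds of library were joined with limma 3.58.1 voom and the pool as a block (correlation 0.0936). The interaction and the ratio of TRAP to input were fitted in edgeR on 12 libraries, without the pool as a block. With that block, 4 members had an interaction at an unadjusted p under 0.05. At an adjusted p under 0.05, 43 were then higher and 17 lower in TRAP than in input. Errors of log2 fold changes are standard errors, CPM are TMM-scaled, and RPKM are CPM per kb of exon. Each fit was tested on simulated data. Alternatives were RLE, total counts, other filters, DESeq2 1.42.0, blocks and leaving out each pool. Exon stretches of 75 bases (step 25) were aligned to mm9 with minimap2 2.31.

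The members and lists were chosen with earlier results of these data known. Named genes were the 5 nearest to Fosb on each side, all with an adjusted p under 0.05, the 5 smallest p-values per direction and kind of library, the 3 with the highest and 3 with the lowest ratio of TRAP to input, the 5 with the highest RPKM and up to 4 per list, of which 1 gene is not reported here. Fbxo46, Dhx34, the rest of the zinc finger row and genes with motif matches were added after values were seen. TRAP and input of a pool share mice, and their deviations from group means had r = 0.058 to 0.106. WT and KO pools share the numbers 2 and 3 but no mice (r = −0.069 to 0.003) and were not paired.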

Additional observations from a re-analysis of the deposited data

Results flagged for a closer look

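The effect of genotype differed between TRAP and input at an unadjusted p under 0.05 for 3 members, by an interaction term in edgeR, and none of them passed the adjustment over all genes (adjusted p = 1.00 for each). For Ccdc61 the log2 difference of TRAP minus input was −1.64 ± 0.67 (SE, unadjusted p = 0.0219), between −2.16 and −0.86 when each pool was left out. For Dhx34 it was 1.19 ± 0.53 (unadjusted p = 0.0331; 0.87 to 1.55), from 9.61, 5.99 and 9.59 CPM in WT against 12.7, 7.34 and 10.7 CPM in KO in TRAP, which overlap, and 6.07, 9.59 and 14.0 CPM against 4.48, 6.66 and 5.03 CPM in input, which overlap too. For Zfp109 it was 1.12 ± 0.52 (unadjusted p = 0.04; 0.77 to 1.67). Groups of 3 libraries are too small to test a single library against the others.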

How the results depend on the processing

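Counts of members were within 1.5 times of those reported, and medians within 1 SD, under 192 combinations of result and setting, and moved beyond that under 38. Without a filter on expression, 4 members passed the adjusted p in TRAP and 3 in input, and with DESeq2 2 and 1. With the pool number as a block, although the numbers pair no mice, 12 members were lower in TRAP, 5 of them within 0.5 Mb, with a median of −0.049, and in input 5 were higher and 1 passed the adjusted p. A further alternative, chosen after seeing the data, took the 102 members with a mean of at least 50 reads. Of these, 18 were lower in TRAP and none higher, and 20 were lower in input. Within 0.5 Mb, 5 were lower in TRAP and 5 in input. Leaving out members with over 20% of shared or overlapped exon, also chosen then, left 22 of 130 lower in TRAP and 24 of 132 in input. In the fit of all 12 libraries 0 were higher in input, and in the combined fit without the block, by edgeR, 5 passed the adjusted p. Shares of all genes under these settings are not given here.

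When each pool was left out, the number lower was 15 (without KO pool 4) to 21 in TRAP and 14 (without WT pool 3) to 26 in input, higher 0 to 3 and 0 to 2, and passing the adjusted p 0 to 2 in TRAP. In the combined fit, 0 to 5 were higher and 0 (without WT pool 3 or KO pool 4) to 3 passed the adjusted p. The interaction had 1 (without WT pool 3) to 7 (without WT pool 1), and 11 (without WT pool 3) to 18 were lower in TRAP than in input. Such fits hold fewer libraries, and the causes of these shifts were not tested. The share of all genes called in each of these fits is not given here.

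The direction of some genes that had not passed a test turned. With the pool number as a block these were Eml2 (−0.0050) and Vasp (−0.28) in TRAP and Ercc1 (−0.084) in input, and with total counts Snrpd2 (−0.012) in input. Without a pool they were, in TRAP, Apoe (−0.16 to 0.18), Eml2 (−0.12 to 0.13), Ppp1r13l (−0.50 to 0.62), Relb (−0.37 to 0.012), Snrpd2 (−0.20 to 0.065), Vasp (−0.16 to 0.16), Zfp551 (−0.27 to 0.39) and Zfp60 (−0.00025 to 0.42). In input they were Eml2 (−0.12 to 0.0040), Ercc1 (−0.12 to 0.53), Sertad1 (−0.24 to 0.23), Snrpd2 (−0.11 to 0.091) and Zfp110 (−0.36 to 0.044), and in the combined fit Eml2 (−0.10 to 0.050), Rtn2 (−0.069 to 0.15) and Snrpd2 (−0.13 to 0.043). At 3416030 to 5614089 reads per library, a member at 10 reads can show only large changes.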
